A study of Mus musculus with 6 samples.

Results

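Follicular cells without Il4 or Il21 were T cell barcodes that carried transcripts of the follicular programme but none of the transcripts for interleukin-4 (Il4), interleukin-21 (Il21) or the follicular migration factor Ascl2. A barcode was kept with at least 500 detected genes, at most 10% mitochondrial UMIs (unique molecular identifiers, 1 for each captured transcript), at least 1 UMI of the CD3 genes, and 0 UMIs of Epcam, Krt8 and Cd79a. A kept barcode was called follicular with a UMI in at least 3 of 5 genes: Cxcr5, Bcl6, Pdcd1, Tox2 and Sostdc1. The members were the follicular barcodes with 0 UMIs of Il4, Il21 and Ascl2. They numbered 89 of 2887 kept barcodes and of 4803 barcodes in all. The other 675 follicular barcodes carried at least 1 UMI of those cytokine or migration genes. The members are therefore defined by what was read in them, and the levels of the rule's own genes are given as a description only.

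T follicular helper cells are CD4 T cells that enter B cell follicles and drive germinal centres. Bcl6 is their lineage repressor, Cxcr5 takes them towards the follicle, and Pdcd1 encodes the inhibitory receptor PD-1 that marks them. Their help to B cells is delivered through interleukin-21 and interleukin-4 together with contact molecules such as CD40 ligand and ICOS, and in gut-draining follicles they support the IgA response.

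The members came from 4 single-cell libraries of OT-II CD4 T cells, whose transgenic antigen receptor recognises an ovalbumin peptide. The mutant libraries (mutant 1 and mutant 2) held TgfbrIWT/mut cells, heterozygous for the M318R allele of Tgfbr1 known from Loeys-Dietz syndrome. The WT libraries (WT 1 and WT 2) held cells with unmutated Tgfbr1. All donor cells were on an OTII+/+RAG-/- background and went intravenously into CD45.1 WT hosts, which drank 1.5% ovalbumin for 7 days. Peyer's patches were collected on day 8, and the transferred cells were enriched with CD4 beads and sorted by the host and donor forms of CD45 with CD4+, CD8- and TCRβ+ gates. The allele was carried by the transferred T cells and not by their hosts, and the cells were transgenic for 1 receptor, which limits them as a model of a natural repertoire. The age and number of donors and hosts in these libraries were not given, nor whether a library was 1 animal. Genotype p-values within members measure the spread between libraries, which may thus be technical. Where classes of barcodes are compared within libraries, p-values measure the spread of the class difference over libraries, which may be technical too. Rapamycin or vehicle treatment and peanut gavage are described for the study too, but nothing ties them to these libraries.

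The mutant libraries held 847 and 190 kept barcodes and the WT libraries 1236 and 614. The members numbered 27 and 5 in the mutant libraries and 36 and 21 in the WT libraries, with 285941 and 47827 UMIs against 394957 and 208705. Every value for mutant 2 thus rests on 5 barcodes. Members had a median of 9199 UMIs, against 10190 in the follicular barcodes with Il4, Il21 or Ascl2 and 8717.5 in all other kept barcodes, and Scrublet called 3 of the 89 as doublets. Between 7 and 18 barcode strings were shared by any 2 libraries, and none of them was a member. Epithelial markers summed to 3 UMIs over all members and red blood cell markers to 0. Of the 29 UMIs of B cell markers 23 were Cd74, and Ms4a1 was at 0.

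The follicular label rested on few transcripts per barcode. Of the members 66 had exactly 3 of the 5 markers, 19 had 4 and 4 had all 5. Cxcr5 with Bcl6 and Pdcd1 was the commonest combination, in 41 barcodes, and the same genes with Tox2 came next, in 14. Cxcr5 was found in 79 members, Bcl6 in 79, Pdcd1 in 78 and Tox2, a factor that sustains the follicular programme, in 45. Sostdc1, a secreted antagonist found in a subset of follicular helper cells, was found in 13. In 20 epithelial barcodes of the same libraries, which should lack these genes, at most 1 barcode had a UMI of any marker, at a median depth of 1594.5 UMIs, well under that of the members. Pdcd1 stood at 227 and 230 CPM (the gene's UMIs as a share of all UMIs summed, on the usual CPM scale) in mutant members and at 213 and 254 CPM in WT members. In follicular barcodes with Il4, Il21 or Ascl2 it stood at 419 and 453 CPM in the mutant libraries and at 466 and 522 CPM in the WT libraries, above the members in every library. Cxcr5 was likewise lower in members of every library, with 122 and 146 CPM in mutant and 129 and 125 CPM in WT members, against 198 and 202 CPM and 178 and 178 CPM. Bcl6 was lower in members of each library too, but close in mutant 2 (188 against 191 CPM) and WT 2 (216 against 224 CPM). Tox2 was higher in mutant 2 members (188 against 168 CPM) and Sostdc1 in mutant 1 members (325 against 306 CPM). Both were lower in members of the remaining libraries. These are levels of genes that chose the members.

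UMIs of Il4, Il21 and Ascl2 varied widely among follicular barcodes, with more barcodes at 0 than at 1 or at 2 over all libraries. Among the 764 follicular barcodes, 89 had 0 UMIs of these genes, 53 had 1, 67 had 2, 82 had 3 and 352 had 6 or more. Where any was read, Il21 was found in 591 of 675 barcodes, Il4 in 387 and Ascl2 in 379. Barcodes just outside the cytokine threshold had a larger sum of other helper genes than the members, given here with no test. The 24 helper genes that the rule did not use (Icos, Cd40lg, Maf and others) summed to 5938 CPM in members. They summed to 7902 CPM in follicular barcodes with 1 UMI of the cytokine or migration genes and to 7584 CPM in those with 2 or more. Barcodes with none of these UMIs and only 2 markers, just outside the other threshold, summed to 5799 CPM, and those with 0 or 1 marker to 5863 CPM. Among the members, the 66 with 3 markers summed to 5655 CPM, beside the barcodes that were not called follicular, and the 23 with 4 or 5 markers to 6940 CPM, between these and the other follicular barcodes. The members' sums include the Eomes-type barcodes described below. Genes of naive or recirculating T cells (Klf2, S1pr1, Ccr7, Lef1 and others) summed to 1482 CPM in members. They summed to 2211 CPM in barcodes with 2 markers, 1538 CPM in follicular barcodes with 1 UMI and 1021 CPM in those with 2 or more. On that list the members lay nearest to follicular barcodes with 1 such UMI.

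Membership also depended on depth. When every barcode was thinned to 4000 UMIs, 69 barcodes met the rule, of which 23 were members at full depth and 46 had a UMI of Il4, Il21 or Ascl2 at full depth. Of the full-depth members 66 then had under 3 markers. A barcode without a UMI may still express the gene, so the class is a rule on detected transcripts.

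**Figure D1:**
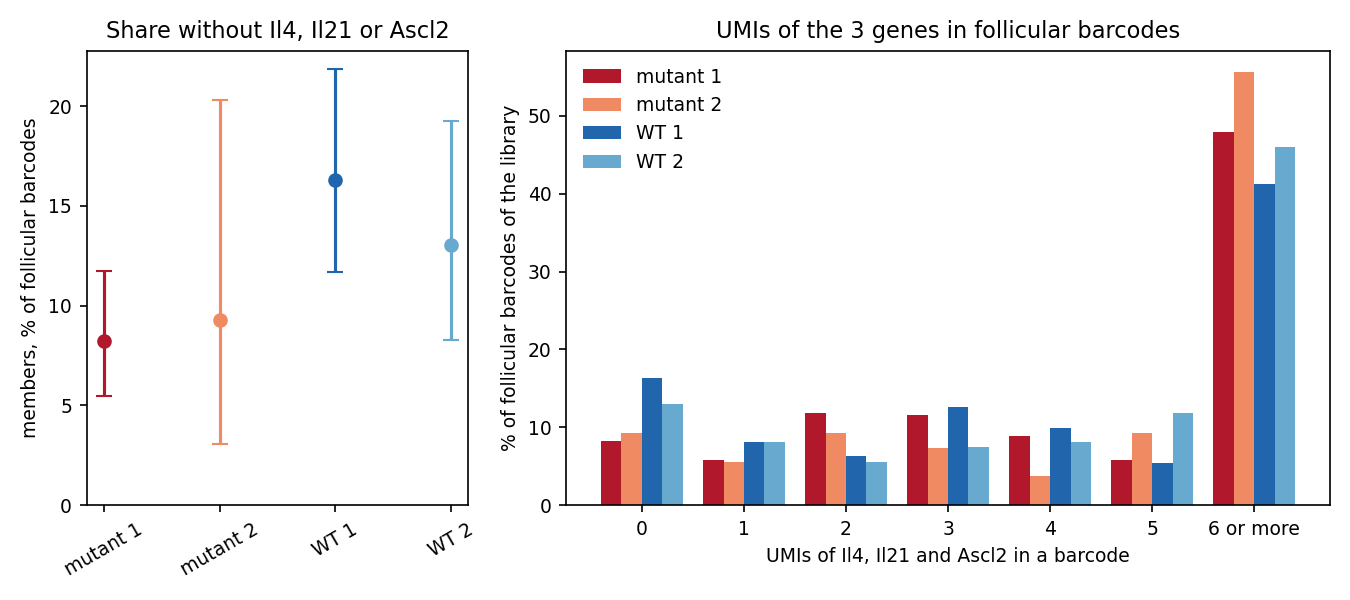
Left, members as a percentage of follicular barcodes in each library, with exact 95% binomial intervals that cover counting error only; right, the percentage of follicular barcodes in each library by their UMIs of Il4, Il21 and Ascl2 together. The mutant libraries stood at 8.23% and 9.26% and the WT libraries at 16.3% and 13.0%, and in each library the barcodes with 6 or more UMIs were the largest class drawn.

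Some of the members, in a description chosen after their values were seen, went against the follicular label. Of the 89 members, 22 (24.7%, exact 95% interval 16.2 to 35.0%) had UMIs of at least 2 of Eomes, Crtam, Slamf7 and Nkg7, and each of them had at least 3. They are called Eomes-type barcodes below. Eomes (chromosome 9, 118478212 to 118486132, plus strand, mm10) encodes a T-box factor of cytotoxic and memory T cells. Crtam (chromosome 9, 40969691 to 41004628, minus strand) encodes an adhesion receptor found on CD4 T cells with cytotoxic features. Slamf7 is a receptor of the SLAM family, and Nkg7 a protein of cytotoxic granules. The same rule held for 4 of 675 follicular barcodes with Il4, Il21 or Ascl2 (0.593%, 0.162 to 1.51%) and for 131 of 2123 kept barcodes that were not follicular (6.17%, 5.18 to 7.28%). Among members it held for 8 of 27 and 2 of 5 in the mutant libraries and for 9 of 36 and 3 of 21 in the WT libraries.

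The split left a gap among members. No member had exactly 2 of these 4 genes, 12 had 1 and 55 had 0. Among kept barcodes that were not follicular, 29 of the 131 Eomes-type barcodes had exactly 2. Within the 22 Eomes-type members Eomes, Crtam and Slamf7 were found in all 22, with medians of 9.5, 6 and 8.5 UMIs per barcode, and Nkg7 in 16. In the other 67 members they were found in 2, 2, 5 and 3 barcodes, at a median depth of 8791 UMIs against 12350.5 in Eomes-type members. These 4 genes made the split, so their counts describe it and do not test it. Scrublet called none of the Eomes-type members and 3 of the others as doublets. Nr4a2, an orphan nuclear receptor induced by receptor signals, was found in 17 of 22 against 1 of 67. The chemokine gene Xcl1 was found in 6 and 0, and the perforin gene Prf1 in 8 and 0. Cytotoxic effector genes beyond these were scarce, since Gzmk was found in 4 Eomes-type members and Gzma, Gzmb, Ccl5, Tbx21 and Klrd1 in none. Cd4 was found in 20 and Cd8a in 0 of the 22. Of V beta segment UMIs, the segment Trbv12, which belongs to the OT-II receptor, gave 5 of 5 in Eomes-type members, 15 of 16 in the other members and 696 of 736 in other kept barcodes.

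Maf, Hif1a and Icos were lower in the Eomes-type members than in the other members and in follicular barcodes with Il4, Il21 or Ascl2. Helper genes outside the rule did not all go this way. Maf, a factor that drives Il21 and Il4, stood at 443 CPM in Eomes-type members, 1202 CPM in the other members and 1935 CPM in follicular barcodes with Il4, Il21 or Ascl2. Hif1a, the hypoxia-inducible factor that drives glycolysis, stood at 237 CPM, 757 CPM and 1281 CPM in these sets, and the costimulator gene Icos at 98.0 CPM, 238 CPM and 277 CPM. In Eomes-type barcodes that were not follicular, Maf, Hif1a and Icos stood at 554, 166 and 90.0 CPM, so low levels were not particular to Eomes-type members. In the remaining barcodes that were not follicular they stood at 1128, 496 and 202 CPM. Sostdc1 was found in 0 of 22 Eomes-type members, against 13 of the other 67 and 185 of 675. Foxp3, the regulatory T cell factor, was found in 0 of 22, in 7 of 67 (17.7 CPM) and in 4 of 675 (1.50 CPM). The remaining 67 members thus lay between the Eomes-type members and the cytokine-bearing follicular barcodes in Maf, Hif1a and Icos. The comparisons below were also made without the Eomes-type barcodes of every class.

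**Figure D2:**
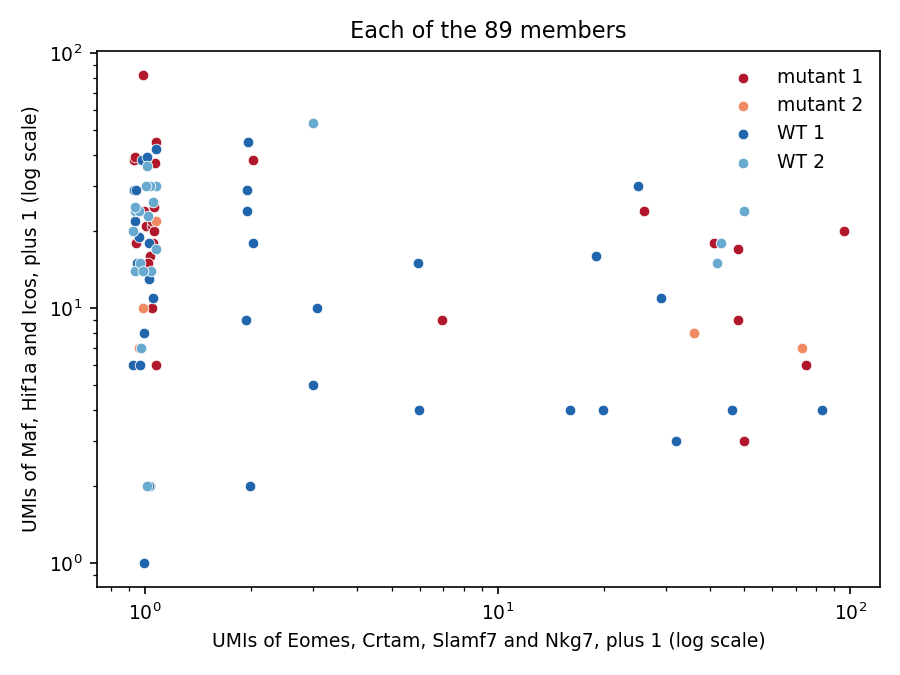
Each point is 1 of the 89 members, with its UMIs of Eomes, Crtam, Slamf7 and Nkg7 on the horizontal axis and of Maf, Hif1a and Icos on the vertical axis, both plus 1 on log scales, coloured by library. Points at the left edge carry none of the first 4 genes, and the Eomes-type members, at the right, come from every library.

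Members were next compared with the follicular barcodes that had Il4, Il21 or Ascl2, library by library. This holds the follicular threshold equal but not the number of markers. Members made up 12.2% and 21.1% of follicular barcodes with exactly 3 markers in the mutant libraries and 28.4% and 18.1% in the WT libraries. These shares were above those among all follicular barcodes in each library. UMIs were summed per library and class and tested with edgeR's quasi-likelihood test with library as a block, Benjamini-Hochberg adjusted over 6077 genes with the rule's genes left out. In members, 10 of 21 tested early genes of receptor signalling and 4 of 7 genes of naive or recirculating T cells were higher, and 8 of 16 genes of glycolysis and mTORC1, Maf, Ctla4 and Id1 were lower. Of the genes tested, 6.01% differed: 182 (2.99%) were higher and 183 (3.01%) lower in members (unadjusted p under 0.05 in 993, 16.3%). DESeq2's test called 66 and 84, and edgeR's test called 91 and 103 with exactly 3 markers in both classes. When the Eomes-type barcodes were left out, 37 were higher and 56 lower, of which 32 and 53 were among the first calls. The calls were 68 and 90 without mutant 1, 79 and 87 without WT 1, and 111 and 141 without WT 2. With all barcodes thinned to 4000 UMIs and the classes chosen anew, 0 genes passed in either direction of the smaller number that could be tested, and Il6ra, P2rx7, Fos, Lag3, Dgkz and Hspd1 had the opposite sign to that given below. Genes that vary from cell to cell together with Il4, Il21 or Ascl2 are bound up with the choice of members, so the tests describe how far these classes differ and not a group found without the rule.

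Several of the largest differences upwards were in genes read mostly in the Eomes-type members. Crtam stood at 282 and 669 CPM in mutant members and 209 and 158 CPM in WT members, against 0 and 0 CPM and 4.29 and 2.61 CPM in follicular barcodes with Il4, Il21 or Ascl2, with no overlap (log2 difference 7.09 ± 0.36, SE; edgeR adjusted p = 3.35e-17). Nr4a2 differed by 6.58 ± 0.40, Eomes by 6.26 ± 0.39, Nkg7 by 5.49 ± 0.42 and Slamf7 by 5.34 ± 0.24. Klf2, the factor that maintains S1pr1, Gpr18, Smad7, an inhibitor of TGF-beta receptors, and Bach2, a repressor of effector genes, also belonged to the 12 largest differences, at 3.19, 2.92, 2.76 and 2.28. Myb, a factor of progenitor and memory T cells, differed by 2.56 ± 0.21, and by 1.57 ± 0.32 without the Eomes-type barcodes, still past the threshold. The other 9 genes named here did not pass the filter on low counts once the Eomes-type barcodes were left out, so they were not tested there. Klf2 was pooled at 56.9 CPM in Eomes-type members, 49.9 CPM in the other members and 5.08 CPM in cytokine-bearing follicular barcodes that were not Eomes-type. Bach2 stood at 56.9 CPM, 30.6 CPM and 8.78 CPM in these sets, Gpr18 at 117 CPM, 24.1 CPM and 6.72 CPM, and Smad7 at 82.2 CPM, 25.8 CPM and 6.17 CPM. These 4 genes were thus higher in the other members too, with no test.

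A few receptor-signal genes were higher also without the Eomes-type barcodes. Of 21 tested genes of receptor signalling and the immediate-early response, 10 were higher and 1 lower in members, with a median log2 difference of 0.69 against 0.01 over all genes tested. Of 19 tested without the Eomes-type barcodes, 4 were higher (Nr4a1, Jun, Cd69 and Tnfrsf9) and 0 lower. Nr4a1, an orphan nuclear receptor that reports receptor signals, stood at 77.0 and 76.4 CPM in mutant and 135 and 81.6 CPM in WT members, against 14.9 and 1.53 CPM and 27.6 and 15.0 CPM in follicular barcodes with Il4, Il21 or Ascl2 (log2 difference 2.46 ± 0.29, SE; edgeR adjusted p = 1.22e-07). Every library of members lay above every library of the other class. Tnfrsf9, the costimulator 4-1BB, stood at 282 and 287 CPM in mutant and 341 and 206 CPM in WT members, against 77.9 and 45.8 CPM and 65.3 and 59.5 CPM (log2 difference 2.10 ± 0.16, SE; edgeR adjusted p = 5.60e-12). With the Eomes-type barcodes left out these differences were 2.08 ± 0.36 for Nr4a1 and 1.53 ± 0.21 for Tnfrsf9, both still past the threshold, although mutant 2 members then had 0 CPM of Nr4a1. Jun differed by 0.89 ± 0.17 and by 0.92 ± 0.19 without them, and passed both times. Cd69, an early activation marker that holds cells in tissue, passed there too, at 0.65 ± 0.17. Fos, Junb, Ier2, Dusp2 and Klf6 were higher with all barcodes and did not pass without the Eomes-type ones, where Nr4a2 and Irf8 could not be tested. The costimulator Tnfrsf4 was the lower one, at -0.70 ± 0.21, and did not pass without the Eomes-type barcodes.

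Genes of naive or recirculating cells that passed were all higher. Of 7 tested genes of naive or recirculating cells, 4 were higher in members (Klf2, Lef1, Satb1 and Foxp1) and 0 lower, with a median of 0.63. Lef1, a factor of naive and memory-like T cells, stood at 161 and 306 CPM in mutant and 185 and 67.2 CPM in WT members, against 58.6 and 45.8 CPM and 95.8 and 56.9 CPM (log2 difference 1.19 ± 0.22, SE; edgeR adjusted p = 2.78e-04). It was higher in members in each library, and WT 2 overlapped the other class. Lef1, Satb1 and Foxp1 stayed past the threshold without the Eomes-type barcodes. Of 12 tested inhibitory receptors and anergy genes, Lag3, Dgkz, Izumo1r and Cd5 were higher and Ctla4 lower. Once the Eomes-type barcodes were left out, Cd5, a brake on receptor signals, stayed higher at 0.94 ± 0.20 and Ctla4, a brake on CD28, lower at -0.89 ± 0.18. Lag3, Dgkz and Izumo1r did not pass there, at 0.17 ± 0.16, -0.021 ± 0.18 and 0.51 ± 0.15, and after thinning to 4000 UMIs Lag3 was at -0.16 and Dgkz at -0.15. The chaperone genes Hspd1 and Hspe1 were higher, of 11 heat shock and stress genes tested, and neither passed without the Eomes-type barcodes. Of 11 proliferation genes Mki67 alone passed, lower, with 1 and 2 UMIs in mutant and 1 and 1 in WT members, and it could not be tested without the Eomes-type barcodes.

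Helper genes outside the rule were split. Of 23 tested, Slamf6 and Izumo1r were higher in members, and Cd40lg, Cd200, Btla, S1pr2, Maf, Pou2af1, Il6ra and Tnfsf8 were lower, with a median log2 difference of -0.21. Maf (chromosome 8, 115682942 to 115707794, minus strand) stood at 1045 and 497 CPM in mutant and 823 and 1272 CPM in WT members, against 2090 and 1925 CPM and 1700 and 1997 CPM in follicular barcodes with Il4, Il21 or Ascl2 (log2 difference -1.05 ± 0.14, SE; edgeR adjusted p = 2.92e-06). All libraries of members lay below all libraries of the other class. S1pr2, the receptor that holds cells in the germinal centre, stood at 29.3 and 19.1 CPM in mutant and 10.6 and 28.8 CPM in WT members, against 64.9 and 73.3 CPM and 63.8 and 67.3 CPM (log2 difference -1.63 ± 0.32, SE; edgeR adjusted p = 8.13e-04). Of 22 helper genes tested without the Eomes-type barcodes, 1 was higher and 2 were lower. Maf was lower at -0.72 ± 0.17, S1pr2 lower at -1.32 ± 0.38, and Slamf6, the receptor Ly108, higher at 0.60 ± 0.16. The contact molecule Cd40lg was then at -0.37 ± 0.23 and Tnfsf8, the CD30 ligand, at -0.21 ± 0.16, neither past the threshold.

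The glycolytic genes that passed were lower in members, with and without the Eomes-type barcodes. Of 16 tested genes of glycolysis and mTORC1, 8 were lower and 0 higher, with a median of -0.54. These were the enzymes Gpi1, Pfkp, Tpi1, Gapdh, Pgk1 and Pkm, the serine synthesis enzyme Psat1, and Hif1a. Hif1a stood at 818 and 382 CPM in mutant and 460 and 615 CPM in WT members, against 1427 and 1289 CPM and 1135 and 1220 CPM (log2 difference -1.12 ± 0.14, SE; edgeR adjusted p = 4.66e-07). Tpi1, triosephosphate isomerase, stood at 304 and 210 CPM in mutant and 214 and 346 CPM in WT members, against 615 and 503 CPM and 435 and 442 CPM (log2 difference -0.86 ± 0.15, SE; edgeR adjusted p = 1.33e-04). For both genes the classes did not overlap. With the Eomes-type barcodes left out 6 of the 16 were lower, all of those named but Gpi1 and Psat1, with a median of -0.62 and Tpi1 at -0.85 ± 0.18. The median depth was then 8791 UMIs in members and 10198 UMIs in the other class, and its part in these differences was not tested.

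Among the genes with the largest differences downwards, Id1, an inhibitor of basic helix-loop-helix factors, had 1 UMI in all members, against 520 in the follicular barcodes with Il4, Il21 or Ascl2. The ratio of their pooled levels was 0.0150 (exact 95% interval for counting error 0.000380 to 0.0842). The myeloid factor Cebpa stood at 29.3 and 0 CPM in mutant and 21.2 and 57.6 CPM in WT members, against 210 and 237 CPM and 203 and 197 CPM (log2 difference -2.73 ± 0.25, SE; edgeR adjusted p = 5.40e-10). Stx11, a syntaxin of granule release, stood at 95.3 and 19.1 CPM in mutant and 34.4 and 52.8 CPM in WT members, against 301 and 228 CPM and 209 and 262 CPM (log2 difference -2.17 ± 0.21, SE; edgeR adjusted p = 8.86e-10). The others of the 12 largest were the protease gene Ctsl, Padi4, BC018473, the histone gene Hist1h2ap, Gpm6b, Coq8a, the factor Nfia, the nuclease gene Dnase1l3 and Asb2, at -3.22 to -2.17. All 12, Id1 included, stayed lower and past the threshold without the Eomes-type barcodes, at -5.09 to -1.59. Hist1h2ap belongs to a histone family with near-identical copies, so its counts are uncertain.

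Most calls among interferon-stimulated and TGF-beta genes did not pass, or could not be tested, without the Eomes-type barcodes. Of 11 tested interferon genes, 2 were lower in members, Ifi27l2a among them, and 0 higher, with a median of -0.49, and neither passed without the Eomes-type barcodes. Of 10 tested genes that TGF-beta induces, Smad7, Pmepa1 and Tgif1 were higher and Bhlhe40 and Id1 lower, and Id1 alone passed without the Eomes-type barcodes. Of 8 tested receptors, ligands and Smads of the pathway, the ligand gene Tgfb1 was higher at 0.87 ± 0.17, and 0 of 8 passed without the Eomes-type barcodes. Of 6 tested regulatory T cell genes Capg was higher and Ctla4 lower, and Ctla4 alone passed without the Eomes-type barcodes, Capg being at 0.76 ± 0.27. Of 4 tested type 2 genes Nfil3 was lower at -1.05 ± 0.31; without the Eomes-type barcodes it did not pass, and Notch1 was higher at 0.83 ± 0.24. Of 3 tested Th17 genes Ramp1, a co-receptor for the neuropeptide CGRP, was higher and the interleukin-1 receptor gene Il1r1 lower, the second of which passed also without the Eomes-type barcodes, where Ramp1 could not be tested. Of 6 genes of gut homing and tissue residence, Itga4 and Rgs1 were higher and P2rx7 lower. Without the Eomes-type barcodes they were at 0.50 ± 0.36, 0.84 ± 0.33 and -0.30 ± 0.26 and did not pass, Cd69 being the 1 gene of that list that did. After thinning to 4000 UMIs P2rx7 was at 0.23, the opposite direction. Of 8 survival and death genes 1 was higher, and 1, Tnfrsf4, was lower, and 0 passed without the Eomes-type barcodes. Id2, the single tested gene of the NK and innate lymphoid list, was higher at 0.64 ± 0.18, and at 0.68 ± 0.22 without them, where it did not pass.

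**Figure D3:**
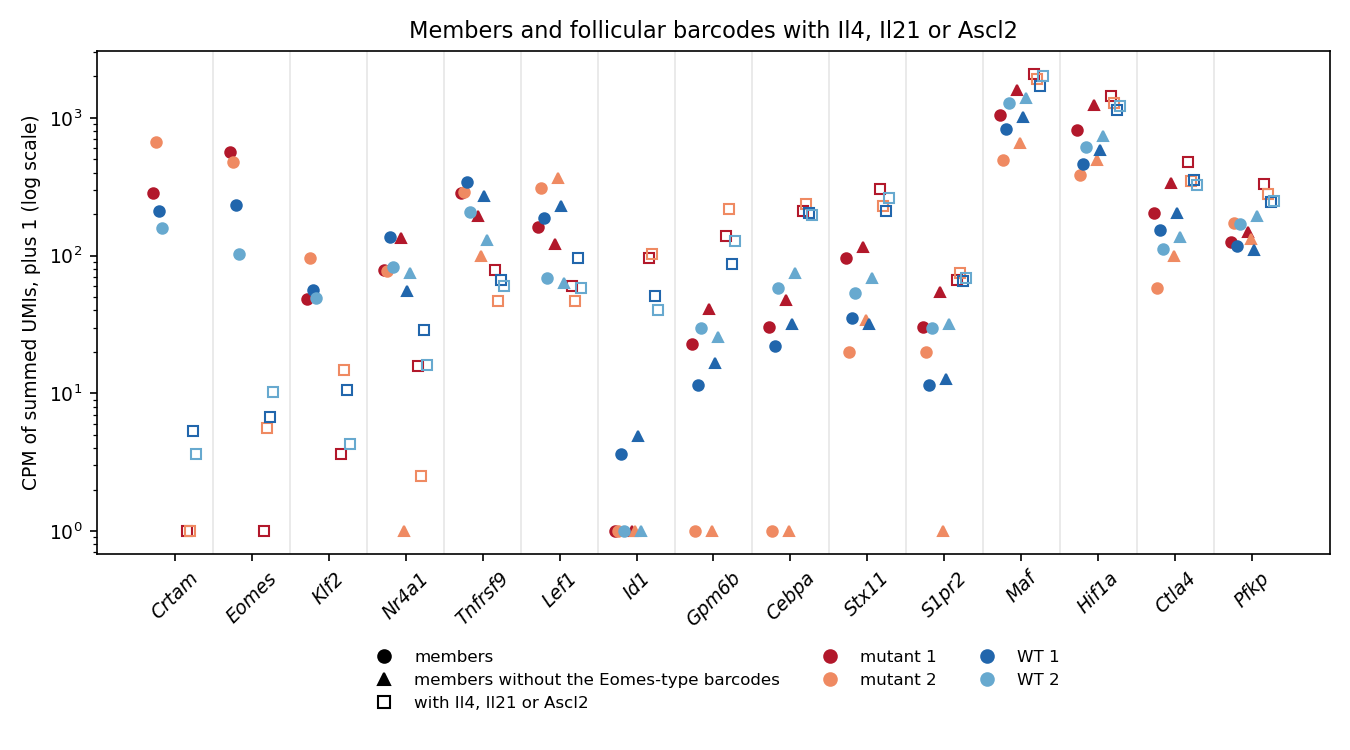
CPM plus 1 on a log scale for 15 genes, with filled circles for members, triangles for members without the Eomes-type barcodes and open squares for follicular barcodes with Il4, Il21 or Ascl2, coloured by library. Crtam, Eomes and Klf2 have no triangles since they did not pass the filter on low counts there; Id1, Cebpa, Stx11 and Maf lie lower in members of every library.

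**Figure D4:**
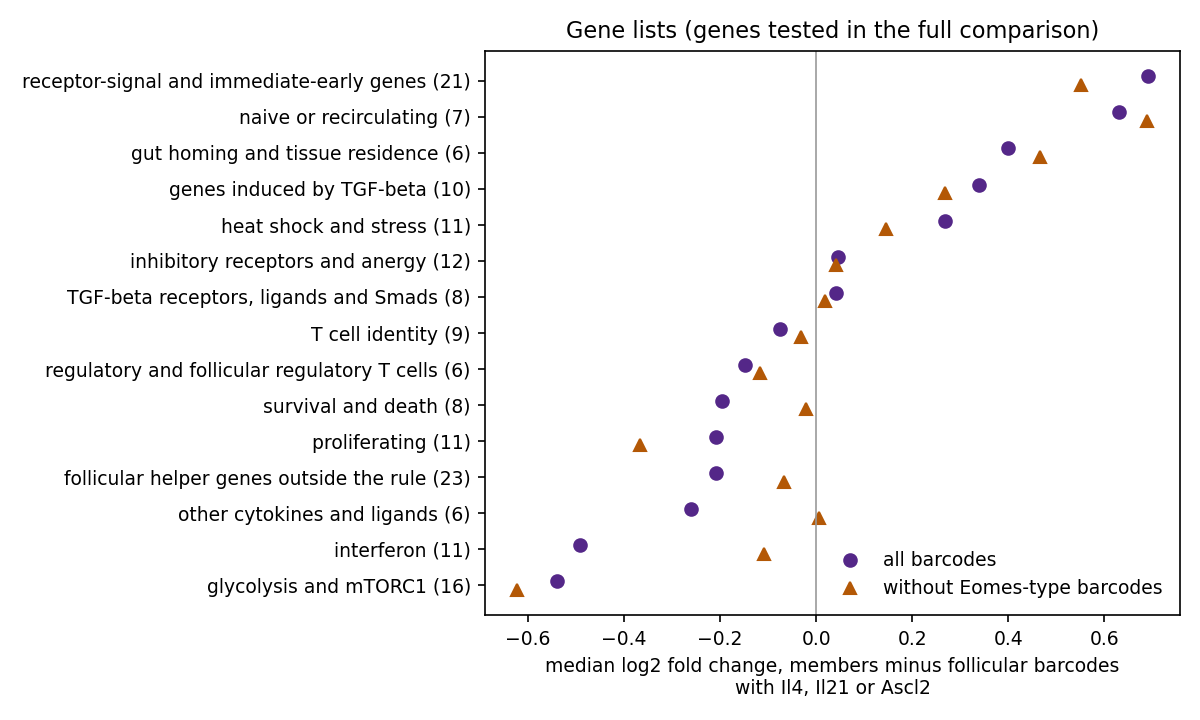
Median log2 difference, members minus follicular barcodes with Il4, Il21 or Ascl2, for each gene list with at least 6 tested genes (the number tested in brackets), with all barcodes (circles) and without the Eomes-type barcodes (triangles). The receptor-signal median stands at 0.69 with all barcodes and that of glycolysis and mTORC1 at -0.54, and both keep their sign.

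Against all 2798 other kept barcodes, which mix follicular and other T cells, fewer genes differed. Of 7830 genes tested, 1.03% differed: 44 (0.562%) were higher and 37 (0.473%) lower in members by edgeR's quasi-likelihood test (unadjusted p under 0.05 in 703, 8.98%). DESeq2's test called 14 and 6. With the Eomes-type barcodes left out 2 were higher and 9 lower, and the calls were 13 and 13 without mutant 1 and 32 and 21 without WT 1. Members had more Eomes-type barcodes than the others in every library, at 29.6% and 40.0% against 1.83% and 3.78% in the mutant libraries and 25.0% and 14.3% against 6.75% and 5.40% in the WT libraries. The genes that were higher were led by Crtam (log2 difference 4.40 ± 0.26), Nr4a2 (3.39 ± 0.28), Slamf7 (3.32 ± 0.22), Eomes (3.03 ± 0.27) and Nkg7 (2.00 ± 0.26). The 12 largest also held Snx30, Rgs16, Tnfrsf9, Ap3s1, Ermp1, Cmtm7 and Ubash3b, at 1.59 to 1.05. Of these 7, 0 passed without the Eomes-type barcodes, and Ermp1 and Cmtm7 were then at -0.14 and -0.10. When barcodes were thinned to 4000 UMIs and the members chosen anew, Eomes stood at -3.64, Nkg7 at -2.38 and Slamf7 at -0.39, the opposite direction.

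The recirculation receptors S1pr1 and Ccr7, and Id2, were lower in members than in other kept barcodes, with and without the Eomes-type barcodes. Follicular barcodes with Il4, Il21 or Ascl2 were low in them too. S1pr1, the receptor that takes T cells out of lymphoid tissue, stood at 7.27 and 17.3 CPM in mutant and 10.5 and 9.54 CPM in WT members, against 36.0 and 60.3 CPM and 69.7 and 65.7 CPM in other kept barcodes (log2 difference -2.56 ± 0.39, SE; edgeR adjusted p = 1.05e-05). Ccr7, which takes T cells into the T zone, stood at 14.5 and 17.3 CPM in mutant and 39.3 and 0 CPM in WT members, against 35.8 and 45.4 CPM and 89.8 and 68.0 CPM (log2 difference -1.65 ± 0.34, SE; edgeR adjusted p = 2.70e-03). The repressor of helix-loop-helix factors Id2 stood at 113 and 69.3 CPM in mutant and 173 and 148 CPM in WT members, against 235 and 250 CPM and 372 and 336 CPM (log2 difference -1.16 ± 0.16, SE; edgeR adjusted p = 6.28e-07). Members lay below other kept barcodes in each library for all 3 genes, and for S1pr1 and Id2 no libraries overlapped. With Eomes-type barcodes left out, S1pr1, Ccr7 and Id2 were pooled at 11.3, 20.9 and 150 CPM in members. They were at 11.7, 3.02 and 87.4 CPM in cytokine-bearing follicular barcodes and at 77.4, 93.1 and 415 CPM in barcodes that were not follicular. The low levels were thus not particular to members, and Ccr7 and Id2 were lower still in the cytokine-bearing class. Against other kept barcodes all 3 genes stayed lower without the Eomes-type barcodes, at -2.42 ± 0.48, -1.73 ± 0.40 and -1.18 ± 0.20, as did Hist1h2ap, Gpm6b, BC018473 and Id1. The last 2 depended on the barcodes compared. BC018473 was at 0.83 against barcodes with under 3 markers, which leaves out the other follicular barcodes, and at 1.29 after thinning to 4000 UMIs, and Id1 was at 1.23 after thinning. Id1 had 1 UMI in members against 610 in other kept barcodes, of which 520 lay in the follicular barcodes with Il4, Il21 or Ascl2 compared above. With Eomes-type barcodes left out, Id1 was pooled at 1.61 CPM in members and at 5.37 CPM in barcodes that were not follicular. Ccr7 stood at 0.077 when 2 markers sufficed for membership. Ctsl, Tspoap1, Csf1, Cebpa, Tcp11l2 and Gimap7 completed the 12 largest downwards, at -2.06 to -1.02, and did not pass without the Eomes-type barcodes. Cebpa was at 0.57 against barcodes with under 3 markers.

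By list, 5 of 12 tested genes of naive or recirculating cells were lower (Ccr7, S1pr1, Il7r, Gpr183 and Satb1) and Cd55 higher, with a median of -0.61 against -0.02 over all genes. Without the Eomes-type barcodes 2 of 10 tested passed, Ccr7 and S1pr1, while Il7r, Gpr183 and Satb1 did not. Il7r, the interleukin-7 receptor, had 2 UMIs in members and 418 in other kept barcodes, a ratio of pooled levels of 0.130 (exact 95% interval 0.0157 to 0.473). Of 24 helper genes outside the rule, Rgs16 was higher and Cd200, Maf and Tnfsf8 lower, with a median of -0.24. Among 23 tested without the Eomes-type barcodes Cd160, a receptor that binds HVEM, alone passed, higher at 0.76 ± 0.18, and the median was 0.05. Of 23 receptor-signal genes Nr4a2, Nr4a3 and Tnfrsf9 were higher, and 0 genes passed without the Eomes-type barcodes. Of 13 interferon genes 3 were lower, Ifi27l2a and Iigp1 among them, and of 17 genes of glycolysis and mTORC1 0 passed. In the other lists the chemokine receptor Cxcr4 and Hspd1 were among the genes that were higher, and Ctla4, Id1 and Id2 were lower, while 0 genes passed among the type 2, Th17 and proliferation lists and the TGF-beta receptors, ligands and Smads. Of the genes in these interferon and other lists, Id1 and Id2 alone passed also without the Eomes-type barcodes. After thinning to 4000 UMIs Maf stood at 0.11, Ctla4 at 0.51, Hspd1 at -0.27 and Tnfrsf9 at -0.86, the opposite direction.

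The genotype comparison asks whether the mutated receptor in the T cells changes how many members there are and what they express. Members made up 8.23% (27 of 328; exact 95% interval 5.49 to 11.8%) and 9.26% (5 of 54; 3.08 to 20.3%) of follicular barcodes in the mutant libraries. In the WT libraries they made up 16.3% (36 of 221; 11.7 to 21.8%) and 13.0% (21 of 161; 8.26 to 19.2%). The mutant libraries lay below the WT libraries by 5.92 percentage points on average, without overlap (exact permutation test over libraries, two-sided p = 0.333, the smallest that 2 against 2 libraries allow). After thinning to 4000 UMIs the shares were 13.6% and 27.6% in the mutant libraries and 20.6% and 19.8% in the WT libraries, and the mean difference was 0.42 points, with the libraries overlapping. As a share of all kept barcodes, members stood at 3.19% and 2.63% in mutant and 2.91% and 3.42% in WT libraries, and these overlapped (mean difference -0.26 points, exact permutation p = 0.667). The follicular barcodes themselves made up 38.7% and 28.4% of kept barcodes in mutant and 17.9% and 26.2% in WT libraries, so the denominators of the first share moved with genotype. Fewer members and more follicular barcodes with Il4, Il21 or Ascl2 cannot be told apart in a share. Antibody tags were present in the WT matrices alone, so genotype and tag handling cannot be told apart either.

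Within members no gene passed for genotype. Of 4096 genes tested by edgeR's quasi-likelihood test, 0 (0%) were higher and 0 lower in mutant members, while 241 (5.88%) had an unadjusted p under 0.05 and 1583 (38.6%) had libraries that did not overlap, 760 (18.6%) of them higher and 823 (20.1%) lower in mutant members. DESeq2's test also called 0. In simulated counts for these 4096 genes, 21% of 2-fold and 72% of 4-fold changes were recovered, so most 2-fold differences would not be detected with these sums. Without mutant 2, the library of 5 members, 10 genes were higher and 7 lower, and without WT 2 there were 1 and 0.

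The genes with the lowest p included Eomes, at 558 and 492 CPM in mutant members against 228 and 99.7 CPM in WT members, without overlap (log2 difference 1.63 ± 0.34, SE; edgeR adjusted p = 0.116). It did pass without mutant 2, with no filter on low counts, with 2 markers sufficient for membership, and with the replicate number as a block. Slamf7 stood at 478 and 570 CPM against 157 and 218 CPM (1.47 ± 0.31). The mutant members held 8 of 27 and 2 of 5 Eomes-type barcodes and the WT members 9 of 36 and 3 of 21. Alcam, an adhesion receptor that binds CD6, stood at 156 and 334 CPM in mutant members against 52.5 and 61.7 CPM in WT members (1.82 ± 0.39), and at 1.82 ± 0.54 without the Eomes-type barcodes. The interferon-inducible genes among the 10 lowest p did not point one way. Bst2, which tethers virions, stood at 10.9 and 19.7 CPM against 110 and 61.7 CPM (-2.81 ± 0.65) and the GTPase gene Ifi47 at 72.4 and 19.7 CPM against 178 and 223 CPM (-1.66 ± 0.39), while the GTPase gene Gbp7 stood at 112 and 98.3 CPM against 31.5 and 14.2 CPM (2.11 ± 0.49). Xcl1 was at 54.3 and 0 CPM in mutant and 186 and 195 CPM in WT members (-2.08 ± 0.44), and at 1.27 when 2 markers sufficed. It was read in 6 members in all, and 1 barcode held 62 of the 71 UMIs of WT 1 members. Atxn1, Crip1 and Tm6sf1 completed the 10. In the full comparison 0 of the 10 passed the threshold.

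The TGF-beta pathway was read thinly in members. Tgfbr1 itself, whose changed codon lies outside what 3′ tags read, so that its level does not check the labels, had 3 and 0 UMIs in mutant members and 18 and 7 in WT members. The ratio of pooled levels was 0.217 (exact 95% interval for counting error 0.0419 to 0.711). Pmepa1, a feedback inhibitor that TGF-beta induces, stood at 61.6 and 19.7 CPM in mutant members against 139 and 109 CPM in WT members, without overlap (log2 difference -1.23 ± 0.42, SE; edgeR adjusted p = 0.668). Smad7, another feedback inhibitor, stood at 61.6 and 59.0 CPM against 47.2 and 19.0 CPM (0.74 ± 0.54), and Skil, a Smad-bound repressor, at 68.8 and 39.3 CPM against 94.5 and 94.9 CPM (-0.59 ± 0.42). Of the 8 tested genes induced by TGF-beta 4 lay above and 4 below 0, and all 5 tested receptors, ligands and Smads lay above 0, with no call in either list. The median of the 21 tested helper genes was 0.16, against -0.02 over all genes. Of these 21, 15 lay above 0, as did 1982 of all 4096 genes tested. Without the Eomes-type barcodes 19 of 20 lay above 0, and 0 passed. Mutant 2 then rested on 3 members, and the share of all genes above 0 was not counted there, so the 19 have no background.

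Whether the genotype difference was of another size in members than in other kept barcodes was tested with an interaction term, each library being its own block. Of 7830 genes 0.153% passed: 9 (0.115%) had a genotype difference that was higher in members and 3 (0.0383%) one that was lower, by edgeR's quasi-likelihood test (unadjusted p under 0.05 in 376, 4.8%). Eomes was at 560 and 433 CPM in mutant and 228 and 100 CPM in WT members, and at 16.6 and 47.1 CPM in mutant and 48.0 and 46.7 CPM in WT other kept barcodes. Its interaction was 2.57 ± 0.30 (log2, SE; edgeR adjusted p = 2.65e-13). Mutant members were thus above WT members, and among other kept barcodes mutant 1 alone was apart, below the rest. Nkg7 had an interaction of 2.63 ± 0.36, Crtam of 2.52 ± 0.40 and Slamf7 of 1.80 ± 0.32. Single barcodes weighed on these sums. Of the UMIs in all Eomes-type members, 1 barcode held 53 of 280 for Eomes and 1 held 51 of 222 for Crtam. The highest counts were 26 of 261 for Slamf7 and 23 of 155 for Nkg7. Smad7 was at 61.8 and 52.0 CPM in mutant and 47.2 and 19.1 CPM in WT members, against 17.5 and 26.4 CPM and 72.5 and 49.2 CPM in other kept barcodes, an interaction of 2.44 ± 0.58 (edgeR adjusted p = 0.0201). Its order between genotypes was thus opposite in the classes with all barcodes. Without the Eomes-type barcodes Smad7 was at 13.3 and 29.0 CPM in mutant and 47.1 and 6.1 CPM in WT members, which overlap, and its genotype difference within members was -0.34 when 2 markers sufficed for membership. The adaptor gene Grap2, Sox4 and Alcam also had a higher interaction, at 2.97, 1.77 and 1.59. Xcl1, Crip1 and Ifi47 had a lower one, at -3.50, -2.38 and -1.88. In members Xcl1 was read in 6 barcodes, 1 of which held 62 of its 127 UMIs. Sox4 and Xcl1 turned direction, Sox4 to -9.96 without mutant 1 and to -9.04 without the Eomes-type barcodes, where mutant members had 0 CPM, and Xcl1 to 3.98 when 2 markers sufficed.

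The Eomes-type barcodes were unevenly spread over these groups. They made up 29.6% and 40.0% of mutant members and 25.0% and 14.3% of WT members, against 1.83% and 3.78% of mutant and 6.75% and 5.40% of WT other kept barcodes. Without them 0 genes passed in either direction, with 7 of the 12 calls tested and 5, Eomes, Crtam, Slamf7 and Xcl1 among them, under the filter on low counts. The interaction of Nkg7 was then 5.87 ± 1.36, with 0 CPM in mutant 2 and WT 2 members, and that of Alcam 1.45 ± 0.57, close to its value with all barcodes, and neither passed. Grap2 stood at 1.21 ± 1.18 and Smad7 at 0.85 ± 1.17. With all barcodes, 0 of the 12 calls were kept across the removal of each library in turn. There were 1 and 1 calls without mutant 1, 3 and 0 without WT 1, and 3 and 1 without WT 2. After thinning to 4000 UMIs Eomes stood at -5.82, Nkg7 at -6.26 and Slamf7 at -9.09, the opposite direction. Crip1 and Ifi47, which kept interactions of -2.80 ± 0.80 and -1.61 ± 0.48 without the Eomes-type barcodes, did not pass there.

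**Figure D5:**
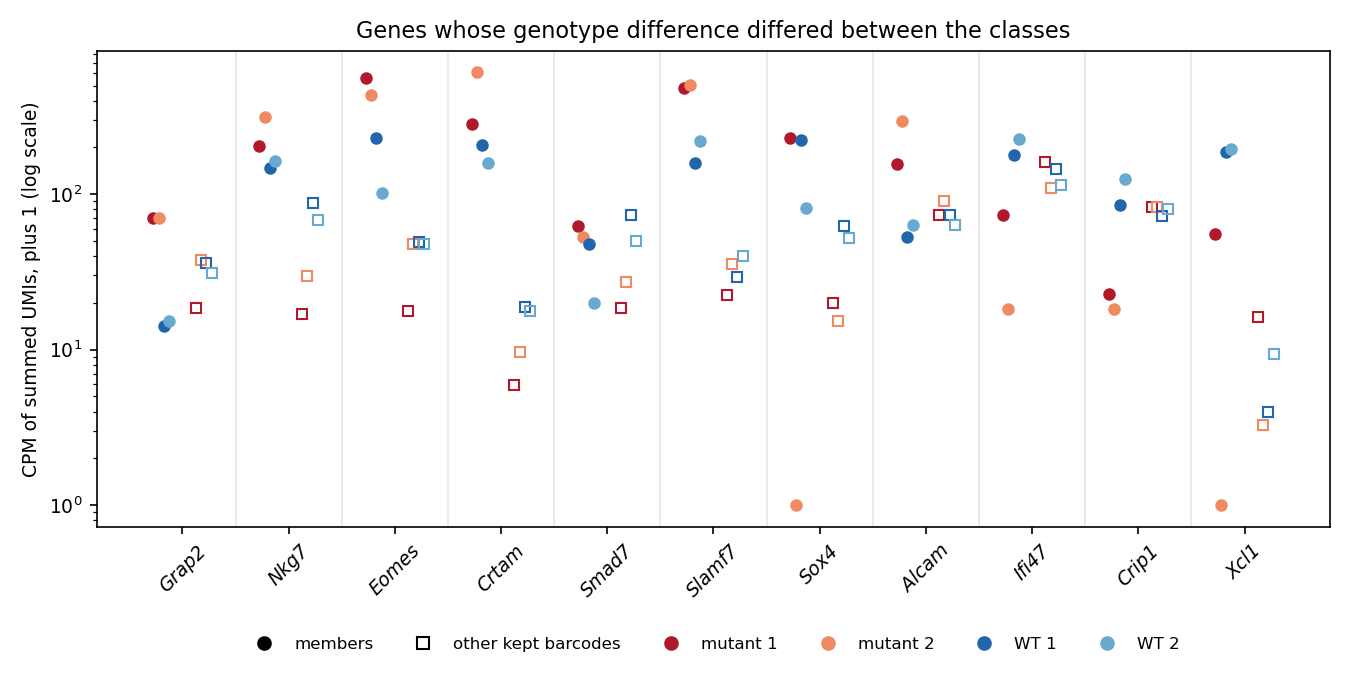
CPM plus 1 on a log scale for 11 of the 12 genes whose genotype difference differed between members (filled circles) and other kept barcodes (open squares), coloured by library and ordered by the interaction. Mutant members lie above WT members for Eomes, Slamf7, Crtam, Nkg7, Smad7, Grap2 and Alcam, and below them for Ifi47, Crip1 and Xcl1.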

How the data were processed

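The deposited values are UMI counts of 32285 genes per barcode from 10x 3′ libraries, made by the authors; the submitters' processing notes name Cell Ranger 6.0.0, Seurat 4 and the mm10 build. Antibody-tag counts (3 tags) stood in the WT matrices, and 2 WT samples labelled as hashtag libraries had no matrix of their own here. Barcodes were kept and chosen by the rule in the opening; Scrublet (scanpy 1.11.5) doublets were kept. UMIs were summed per library and class and tested with edgeR 4.0.16 (R 4.3.3; filterByExpr, TMM, quasi-likelihood test, Benjamini-Hochberg at 0.05), leaving the rule's genes out of the tests. Members were tested without a block by genotype, and with library as a block against other classes. CPM beside a test are TMM-scaled within that fit, so values differ slightly between fits; sums of lists, rule genes and splits are unscaled. SE is the log2 difference divided by the root of F. Genes with 1 to 3 UMIs in a group are given as ratios. Named genes were, per fit, the 12 largest differences each way among calls of one direction in every library with a mean of at least 20 CPM (where under 5 passed, the 10 lowest p), and called genes of 25 lists; Tgfbr1, Smad7, Pmepa1 and Skil by genotype and the Eomes-type split were chosen after their values were seen. Some genes are not reported here. The members and the lists were chosen with earlier results of these data known. In tests on simulated data, 4-fold changes were recovered in 91% (6077 genes, members against follicular barcodes with Il4, Il21 or Ascl2), 94% (7830 genes, against other kept barcodes) and 44% (7830 genes, interaction). Coordinates are GENCODE vM21 genes matched by identifier. DESeq2 1.42.0 and other filters, scalings, depths and left-out libraries were tried as alternatives. Intervals cover counting error only.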

Additional observations from a re-analysis of the deposited data

Results flagged for a closer look

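The genotype difference of 12 genes differed between members and other kept barcodes by a test of the difference itself. For 11 of them the log2 interactions were 2.57 for Eomes, 2.63 for Nkg7, 2.52 for Crtam, 1.80 for Slamf7, -3.50 for Xcl1, -1.88 for Ifi47, 1.77 for Sox4, 2.97 for Grap2, -2.38 for Crip1, 2.44 for Smad7 and 1.59 for Alcam. Without the Eomes-type barcodes 7 of the 12 could be tested, and 0 of these passed by edgeR's test. Sox4 turned to -9.04 there and to -9.96 without mutant 1, and Xcl1 to 3.98 with at least 2 markers. Xcl1 was read in 6 members, and 1 of these held 62 of its 127 UMIs. Among Eomes-type members 1 barcode held 53 of 280 UMIs of Eomes, and 1 held 51 of 222 of Crtam.

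Antibody tags, which no comparison used, gave 874 UMIs in WT 1 members and 376 in WT 2 members. A single tag of 3 was the highest in 19 of 21 WT 2 members, against 367 of 593 other kept barcodes of that library; the same tag was the highest in 7 of 36 WT 1 members, against 314 of 1200. The mutant matrices hold no tags, and what each tag marks was not given.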

How the results depend on the processing

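Counts below give genes higher, then lower. In genotype within members, 0 and 0 became 4 and 3 with no filter on low counts, 4 and 0 with at least 2 markers, and 0 to 10 and 0 to 7 with 1 library left out. Against other kept barcodes, 44 and 37 became 14 and 6 with DESeq2's test, 160 and 161 with at least 2 markers, 2 and 9 without Eomes-type barcodes, 67 and 89 against barcodes under 3 markers, and 13 to 50 and 13 to 44 with 1 library left out; genes lower were 102 with no filter and 90 after thinning. Against follicular barcodes with Il4, Il21 or Ascl2, 182 and 183 became 66 and 84 with DESeq2's test, 583 and 554 with at least 2 markers, 0 and 0 after thinning, 37 and 56 without Eomes-type barcodes, 91 and 103 with exactly 3 markers, and 68 to 239 and 87 to 230 with 1 library left out; genes lower were 279 with no filter. For the interaction, 9 and 3 became 3 and 1 with DESeq2's test, 0 and 0 without Eomes-type barcodes, and 1 to 10 and 0 to 5 with 1 library left out; genes higher were 0 after thinning, and genes lower 0 with at least 2 markers. The mutant minus WT share of follicular barcodes, -5.92 points, was 0.42 after thinning and -7.54 to -4.30 with 1 library left out. The share of kept barcodes, -0.26 points, was 1.57 after thinning and -0.535 to 0.021 with 1 library left out, reversed without mutant 2.

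The log2 values that turned sign are as follows. Within members by genotype, Xcl1 was 1.27 and Smad7 -0.34 with at least 2 markers, and Ifi47 0.072 after thinning. Against other kept barcodes after thinning, Slamf7 was -0.39, Eomes -3.64, Nkg7 -2.38, Tnfrsf9 -0.86, Ermp1 -0.053, Ubash3b -0.18, Ctsl 0.46, Tspoap1 0.15, BC018473 1.29, Cebpa 0.86, Maf 0.11, Ctla4 0.51, Id1 1.23 and Hspd1 -0.27. Ermp1 was -0.14 and Cmtm7 -0.10 without Eomes-type barcodes, Ccr7 0.077 and Gimap7 0.028 with at least 2 markers, and BC018473 0.83 and Cebpa 0.57 against barcodes under 3 markers. Against follicular barcodes with Il4, Il21 or Ascl2 after thinning, Il6ra was 0.25, P2rx7 0.23, Fos -0.15, Lag3 -0.16, Dgkz -0.15 and Hspd1 -0.059, and Dgkz was -0.021 without Eomes-type barcodes. For the interaction after thinning, Nkg7 was -6.26, Eomes -5.82, Slamf7 -9.09 and Alcam -0.60. Xcl1 was 3.98 with at least 2 markers, and Sox4 -9.04 without Eomes-type barcodes. With 1 library left out Sox4 ranged from -9.96 to 2.45, reversed without mutant 1. Thinning keeps 23 of 89 members in the class; the cause of the other changes was not tested.

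With the replicate number as a block, genotype within members gave 5 genes higher and 2 lower. Deviations of same-numbered libraries correlated at 0.0193. With 5 members in mutant 2 this value cannot tell what the numbers mark, and the labels do not say it. Members numbered 5 in mutant 2, so depth limits every genotype value.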
